A study of Mus musculus with 15 samples.

Results

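The 10 genes described here encode receptors and 1 receptor ligand on the T-cell surface that mark activation or carry costimulatory and coinhibitory signals: Cd69, Cd44, Icos, Tnfrsf4 (OX40), Tnfrsf9 (CD137), Tnfrsf18 (GITR), Cd40lg, Ctla4, Pdcd1 (PD-1) and Lag3. They were chosen as a list of named receptors, and every probe set that the platform annotation pairs with 1 of them alone was used, which gave 17 of the 45101 probe sets on the CD4+ T-cell arrays and 13 of the 22690 probe sets, for 9 of the 10 genes, on the thymocyte arrays. Cd69 had a probe set on the CD4+ T-cell arrays only. No member probe set was shared with another gene.

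A T cell is activated when its antigen receptor (TCR) is engaged together with a costimulatory signal, classically through CD28. Cd69 appears on the cell surface soon after TCR signaling and is a common readout of Ras activity downstream of the TCR, and the adhesion receptor Cd44 is high on activated and memory T cells. Icos and the TNF receptors Tnfrsf4, Tnfrsf9 and Tnfrsf18 add to the activating signal, Cd40lg is the ligand by which helper T cells act on B cells and dendritic cells, and Ctla4, Pdcd1 and Lag3 restrain the response. Several of these receptors, among them Ctla4, Icos, Tnfrsf4 and Tnfrsf18, are also known to be high on Foxp3+ regulatory T cells, a fraction of CD4+ T cells.

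The groups were CD4+ T cells of N-ras KO mice with stimulation and without it, CD4+ T cells of WT mice with stimulation and without it (3 arrays in each of the 4 groups), and thymocytes of 1 N-ras KO, 1 H-ras KO and 1 WT mouse, 15 arrays in all. All mice were on the 129/SJ background and aged 6 to 20 weeks by the labels (the methods give 6 weeks for the thymocyte mice), the KO mice were homozygous and lacked the gene in every cell, and the WT mice were littermates. CD4+ T cells were sorted from spleen and kept overnight in growth medium, with anti-CD3 and anti-CD28 antibodies at 1 μg/ml (a low-level TCR stimulus) in the stimulated groups and with neither in the unstimulated groups. No agent was given to the thymocytes, which are the developing T cells of the thymus.

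The values are log2 expression relative to a baseline that the authors set. In the CD4+ T cells the median of the 3 unstimulated arrays was 0 in each genotype on all 45101 probe sets (tolerance 1e-06). A stimulated value therefore says how far an array stood from unstimulated cells of its own genotype, no level can be read from it, and unstimulated N-ras KO cells could not be compared with unstimulated WT cells. For the same reason the presence of defining T-cell markers such as Cd3e and Cd4 could not be checked. Nras itself went against the labels of 2 replicate pairs. On probe set 1454060_a_at the library pair labelled N-ras KO 3 stood at 2.09 log2 stimulated and 2.04 log2 unstimulated, against 0.51 and 0.08 log2 stimulated in N-ras KO 1 and 2, and the pair labelled WT 1 stood at -3.04 log2 stimulated and -2.68 log2 unstimulated, against -0.10 and 0.00 log2 stimulated in WT 2 and 3. On 1422688_a_at N-ras KO 3 stood at 0.80 log2 stimulated and 1.21 log2 unstimulated, and WT 1 at -1.23 log2 in both states. On 1422687_at N-ras KO 3 stood at 1.21 and 1.70 log2. There WT 1 was low only unstimulated, at -1.61 log2, and stimulated it stood at -0.14 log2 against -0.19 log2 in WT 3. Group names below are the labels, the arrays stayed in the labelled groups, and the counts, as well as the values that changed most, are also given without those 2 pairs. In thymocytes Nras went with the labels, where its 3 probe sets in N-ras KO differed from WT by -1.81, -2.46 and -2.38 log2.

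The question asked of the CD4+ T cells was whether low-level TCR stimulation moved these receptors, and whether it moved them differently in N-ras KO cells. Cd69 was higher with stimulation in all 6 same-numbered pairs, by 0.70 to 1.498 log2. Tnfrsf9 had the largest mean differences, 2.10 log2 in N-ras KO on 1 probe set and 2.00 log2 in WT on another. With limma's p, the WT value was past the thresholds that the study used and the N-ras KO value was not. Lag3 and 1 Cd44 probe set were past these thresholds in N-ras KO cells, while Icos, Cd40lg and Pdcd1 were not past them in either genotype. In N-ras KO the unpaired t-test of the methods gave the reverse. By it that Tnfrsf9 probe set was past the thresholds, while Lag3 and the Cd44 probe set were not. With an adjustment over all 45101 probe sets, no receptor passed in either genotype, nor did the difference between the N-ras KO and the WT response of any (adjusted p = 1.0 for each member probe set, limma).

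At the study's thresholds, an unadjusted p of 0.05 and 1.5-fold, 3 of the 17 member probe sets were higher with stimulation in N-ras KO cells and 0 were lower, against 1.16% higher and 1.19% lower of all probe sets. In WT cells 2 of 17 were higher and 0 lower, against 0.53% and 0.51% of all probe sets. The response of N-ras KO minus that of WT passed for 0 of 17, against 1.29% of all probe sets in either direction. At an unadjusted p under 0.05 without the fold minimum the counts were 3, 2 and 0. The median response over the members was 0.27 log2 in N-ras KO and 0.21 log2 in WT, with 14 and 13 of 17 above 0. Over all probe sets the median was 0.01 log2 in N-ras KO and 0.00 log2 in WT, with 51.7% and 50.5% above 0. Within a genotype, same-numbered arrays deviated in the same direction, and the methods say that sorted cells were divided into a stimulated and an unstimulated portion. With the replicate number within genotype as a block, 6 of 17 were higher in N-ras KO (2.25% of all probe sets higher, 2.65% lower) and 4 of 17 in WT (1.43% higher, 1.37% lower), 0 were lower, and 0 differed between genotypes (4.12% of all probe sets). The lowest adjusted p of a member was then 0.52 in N-ras KO, 0.981 in WT and 0.961 for the difference, all from limma.

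**Figure D1:**
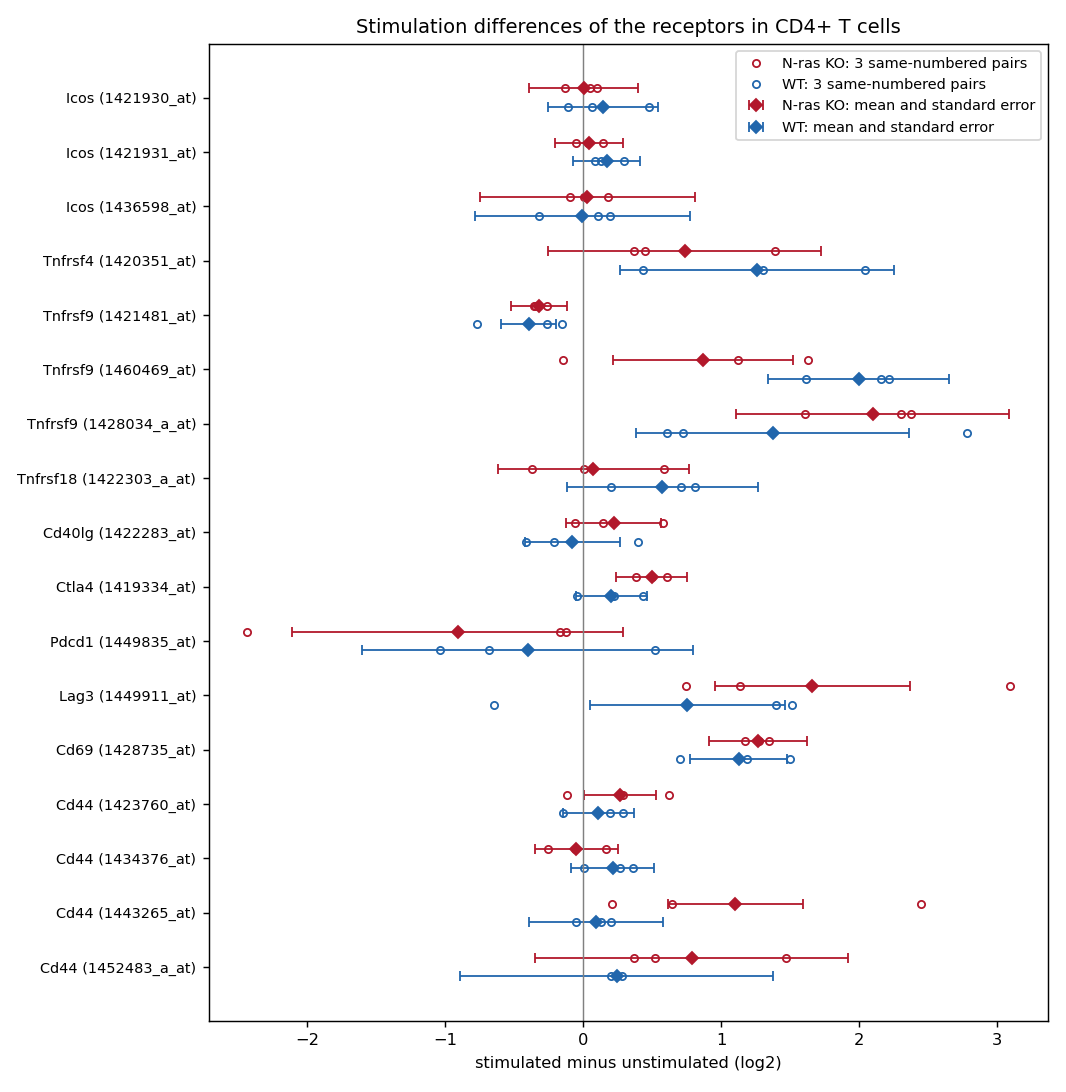
Stimulated minus unstimulated difference in log2 (x axis) for each of the 17 member probe sets (y axis), N-ras KO in red above WT in blue. Diamonds are group mean differences with the standard error of the limma fit without a block, and open circles are the 3 same-numbered pairs. Cd69 has all 6 pairs above 0, and the largest mean differences are those of Tnfrsf9.

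Cd69, the C-type lectin that holds newly activated T cells in lymphoid tissue, was past the study's thresholds in both genotypes. Its probe set 1428735_at stood at 1.28, 1.31 and 2.10 log2 in stimulated N-ras KO arrays and at 0.00, -0.04 and 0.92 log2 in unstimulated N-ras KO arrays. It stood at 1.19, 1.17 and 0.94 log2 in stimulated WT arrays and at 0.00, 0.47 and -0.56 log2 in unstimulated WT arrays. Every stimulated array was above every unstimulated array of its genotype. Cd69 was the 1 member probe set for which this held in both genotypes, as it did for 0.135% of all probe sets. In N-ras KO it held for 4 member probe sets (2.72% of all), and in WT for 2 (2.27%). The paired differences of Cd69 were 1.28, 1.35 and 1.18 log2 in N-ras KO, and 1.19, 0.70 and 1.498 log2 in WT. The fitted response was 1.27 log2 in N-ras KO and 1.13 log2 in WT, both with a standard error of 0.35, or 0.18 with the block. Their difference was 0.14 log2 with a standard error of 0.50 (adjusted p = 1.0, limma). The standard deviation of the paired differences was 0.09 log2 in N-ras KO and 0.40 log2 in WT. Without the pairs labelled N-ras KO 3 and WT 1 the responses were 1.31 and 1.10 log2, again past the study's thresholds. With a trend in eBayes, Cd69 was past them in neither genotype. It also lost that call in WT when WT 1 or WT 3 was left out singly, with 1.10 and 0.95 log2.

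**Figure D2:**
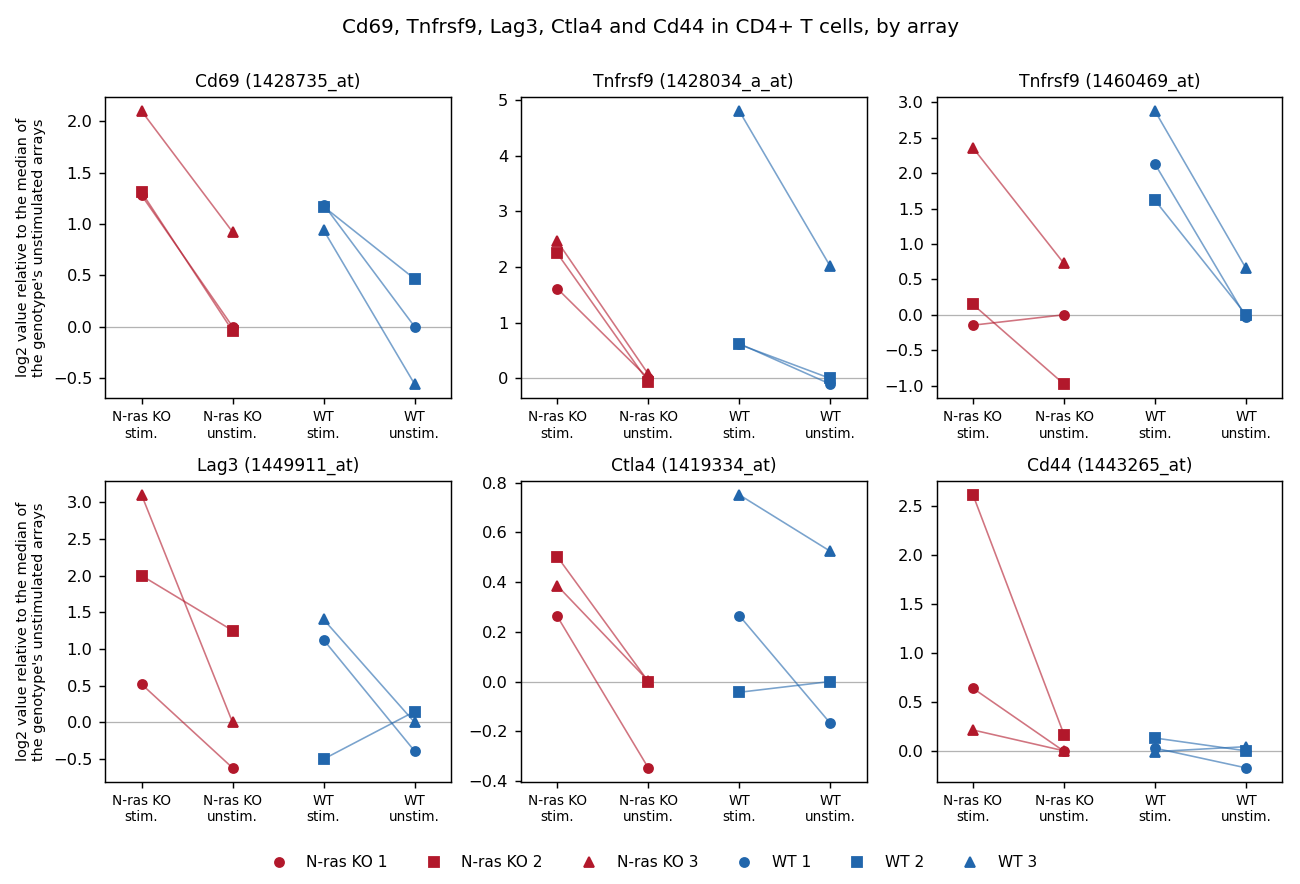
Log2 value of each CD4+ T-cell array (y axis) relative to the median of the unstimulated arrays of its genotype, for Cd69, 2 Tnfrsf9 probe sets, Lag3, Ctla4 and 1 Cd44 probe set, by group (x axis). Lines join arrays of the same number and each genotype has its own zero. Stimulated Cd69 lies above unstimulated Cd69 in both genotypes, whereas WT 3 alone carries the high Tnfrsf9 value of 4.80 on probe set 1428034_a_at.

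Among the costimulatory receptors, Tnfrsf9 had the largest stimulation differences, but its probe sets disagreed on the genotype. Probe set 1428034_a_at stood at 1.61, 2.25 and 2.46 log2 in stimulated N-ras KO arrays and at 0.00, -0.06 and 0.08 log2 in unstimulated N-ras KO arrays. It stood at 0.62, 0.61 and 4.80 log2 in stimulated WT arrays and at -0.10, 0.00 and 2.01 log2 in unstimulated WT arrays. The groups did not overlap in N-ras KO, and in WT the pair numbered 3 was far above the others in both states. The fitted response was 2.10 log2 in N-ras KO and 1.37 log2 in WT, each with a standard error of 0.99, and neither was past the study's thresholds in that fit, while both were with the block (standard error 0.44). Leaving out WT 3 lowered the WT response to 0.67 log2, and the N-ras KO response and the difference between genotypes then passed the study's thresholds, with N-ras KO higher. Without the pairs labelled N-ras KO 3 and WT 1 the responses were 1.96 log2 in N-ras KO and 1.70 log2 in WT. Their difference was then 0.26 log2 (standard error 1.88), not past the thresholds.

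Probe set 1460469_at of Tnfrsf9 had the other order. It stood at -0.15, 0.15 and 2.36 log2 in stimulated N-ras KO arrays and at 0.00, -0.98 and 0.72 log2 in unstimulated N-ras KO arrays, which overlapped. It stood at 2.13, 1.61 and 2.88 log2 in stimulated WT arrays and at -0.04, 0.00 and 0.65 log2 in unstimulated WT arrays, which did not. The response was 0.87 log2 in N-ras KO and 2.00 log2 in WT (standard error 0.66 each), of which the WT response was past the study's thresholds, and with the block (standard error 0.34) the N-ras KO response was too. Without the pairs labelled N-ras KO 3 and WT 1 the responses were 0.49 log2 in N-ras KO and 1.92 log2 in WT. Their difference was then -1.43 log2 (standard error 0.75), not past the thresholds. In the fit of all arrays without the block, the difference between the responses was -1.13 log2 (standard error 0.93, adjusted p = 1.0, limma). Among the fits that left out 1 pair, it passed the study's thresholds only without N-ras KO 3. The WT call was lost without WT 1 (1.92 log2) or without WT 3 (1.89 log2). The third probe set, 1421481_at, was lower with stimulation in all 6 pairs, by -0.15 to -0.77 log2, as were 2.13% of all probe sets. Its fitted responses of -0.32 log2 in N-ras KO and -0.39 log2 in WT had a standard error of 0.20 each and were under the fold minimum.

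Tnfrsf4 and Tnfrsf18, which are adjacent protein-coding genes on chromosome 4, shared a pattern across replicate pairs. Tnfrsf4 (1420351_at) stood at 0.37, 1.06 and -0.59 log2 in stimulated N-ras KO arrays and at 0.00, 0.61 and -1.98 log2 in unstimulated N-ras KO arrays. It stood at 0.44, 1.25 and 3.50 log2 in stimulated WT arrays and at 0.00, -0.79 and 2.20 log2 in unstimulated WT arrays. All 6 pairs were higher with stimulation, while the groups overlapped in both genotypes. The response was 0.74 log2 in N-ras KO and 1.26 log2 in WT with a standard error of 0.99 each, or 0.35 with the block, under which the WT response was past the study's thresholds. Tnfrsf18 (1422303_a_at) stood at -0.37, 0.15 and -0.73 log2 in stimulated N-ras KO arrays, against 0.00, 0.14 and -1.31 log2 in unstimulated ones. It stood at 0.20, 0.50 and 2.52 log2 in stimulated WT arrays, against 0.00, -0.21 and 1.71 log2 in unstimulated ones. Its response was 0.07 log2 in N-ras KO and 0.57 log2 in WT (standard error 0.69 each), and the WT pairs were all higher with stimulation. Without the pairs labelled N-ras KO 3 and WT 1 and with the block, the difference of the responses passed the study's thresholds for both genes, at -1.26 log2 for Tnfrsf4 (responses 0.41 log2 in N-ras KO and 1.67 log2 in WT) and at -0.95 log2 for Tnfrsf18 (responses -0.18 log2 in N-ras KO and 0.76 log2 in WT). The WT responses were past the thresholds there and the N-ras KO responses were not. Without the block neither difference passed. The fit without those pairs and with the block was chosen after the data were seen. For the difference it put 1231 of all 45101 probe sets lower and 1314 higher past the thresholds. The adjusted p of both genes was 0.863 there (limma).

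The promoter windows of the 3 TNF receptor genes are shown because Tnfrsf9 had the largest stimulation differences and because Tnfrsf4 and Tnfrsf18 had the same order across replicate pairs. Each runs from 250 bases before to 50 bases after a RefSeq start site in build GRCm38.p6, on the plus strand, 5′ to 3′, and capitals mark a match to a motif of AP-1, NFAT, NF-kappaB, CRE or Egr, all factors that act downstream of TCR signaling. The Tnfrsf9 windows lie at chr4:150919905-150920204 (start 1) and chr4:150927749-150928048 (start 2), that of Tnfrsf4 at chr4:156013445-156013744 and that of Tnfrsf18 at chr4:156026072-156026371.
Tnfrsf9 start 1: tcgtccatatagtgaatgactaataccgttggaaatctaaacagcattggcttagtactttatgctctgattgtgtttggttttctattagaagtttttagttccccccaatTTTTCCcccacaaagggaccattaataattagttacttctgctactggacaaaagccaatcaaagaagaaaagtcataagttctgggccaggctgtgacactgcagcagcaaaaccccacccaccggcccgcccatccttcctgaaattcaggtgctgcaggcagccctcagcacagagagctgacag
Tnfrsf9 start 2: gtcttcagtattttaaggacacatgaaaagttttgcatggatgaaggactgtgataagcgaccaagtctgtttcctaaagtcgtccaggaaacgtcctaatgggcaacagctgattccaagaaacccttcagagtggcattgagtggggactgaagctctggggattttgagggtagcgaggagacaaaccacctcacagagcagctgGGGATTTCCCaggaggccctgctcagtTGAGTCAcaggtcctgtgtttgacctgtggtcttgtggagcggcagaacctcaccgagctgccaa
Tnfrsf4: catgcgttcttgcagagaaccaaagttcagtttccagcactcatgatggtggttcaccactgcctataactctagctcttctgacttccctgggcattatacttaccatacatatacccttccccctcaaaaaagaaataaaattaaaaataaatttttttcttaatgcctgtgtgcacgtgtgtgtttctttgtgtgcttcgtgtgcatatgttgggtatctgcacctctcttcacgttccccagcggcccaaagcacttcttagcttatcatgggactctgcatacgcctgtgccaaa
Tnfrsf18: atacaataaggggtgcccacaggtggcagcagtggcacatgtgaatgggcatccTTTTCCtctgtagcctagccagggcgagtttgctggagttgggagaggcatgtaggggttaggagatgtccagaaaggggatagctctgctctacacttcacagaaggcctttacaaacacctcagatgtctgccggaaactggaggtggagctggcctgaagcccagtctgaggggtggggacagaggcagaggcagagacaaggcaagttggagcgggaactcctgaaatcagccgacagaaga
Searched on both strands were AP-1 as TGANTCA, NFAT as GGAAAA, NF-kappaB as GGGA and CC with any 4 bases between them, the CRE as TGACGTCA and Egr as GCGNGGGCG. Start 2 of Tnfrsf9 held an AP-1 match from -15 to -9 and, on both strands, an NF-kappaB match from -42 to -33, and start 1 held an NFAT match on the opposite strand from -138 to -133. Tnfrsf18 held an NFAT match on the opposite strand from -196 to -191, and the letters searched for were not in the Tnfrsf4 window. None of the matches overlapped another motif. Of 32851 promoter windows of this length, 7.81% held AP-1, 23.4% NFAT, 20.7% NF-kappaB, 1.79% CRE and 5.55% Egr. The RefSeq table gave windows for 6 of the 10 genes, and among the others Ctla4 held an NFAT match on the opposite strand from -145 to -140, Cd44 held one on the given strand from -205 to -200 and Pdcd1 held none. Icos, Cd40lg, Lag3 and Cd69 had no entry.

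The other costimulatory genes gave small responses. Icos, a CD28 relative that supports helper T-cell function, had responses of at most 0.04 log2 in N-ras KO and at most 0.17 log2 in WT over its 3 probe sets, with standard errors of 0.24 to 0.78. Its values differed more between replicate pairs than with stimulation. On 1436598_at they stood at 0.01, 0.75 and -1.47 log2 in stimulated N-ras KO arrays, against 0.00, 0.56 and -1.37 log2 in unstimulated ones. Cd40lg (1422283_at) stood at -0.30, 0.58 and 0.76 log2 in stimulated N-ras KO arrays and at -0.25, 0.00 and 0.62 log2 in unstimulated ones. It stood at -0.42, 0.43 and -0.35 log2 in stimulated WT arrays and at 0.00, 0.03 and -0.13 log2 in unstimulated ones. Its responses of 0.22 log2 in N-ras KO and -0.08 log2 in WT were within 1 standard error (0.34) of 0.

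Of the coinhibitory receptors, Lag3, which binds MHC class II, was past the study's thresholds in N-ras KO. Probe set 1449911_at stood at 0.52, 2.00 and 3.10 log2 in stimulated N-ras KO arrays and at -0.62, 1.25 and 0.00 log2 in unstimulated N-ras KO arrays. It stood at 1.13, -0.50 and 1.40 log2 in stimulated WT arrays and at -0.39, 0.15 and 0.00 log2 in unstimulated WT arrays. The groups overlapped in both genotypes, and WT 2 was lower with stimulation, unlike the other 5 pairs. The response was 1.66 log2 in N-ras KO and 0.76 log2 in WT (standard error 0.71 each), and the difference of 0.91 log2 was within its standard error of 1.00. Without the pairs labelled N-ras KO 3 and WT 1 the responses were 0.94 log2 in N-ras KO and 0.38 log2 in WT. Without N-ras KO 3 alone the response in N-ras KO was likewise 0.94 log2 and no longer past the study's thresholds, and the call was also lost without WT 1 or WT 3, which share in the estimate of the spread. With the methods' t-test Lag3 was not past those thresholds either.

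Ctla4, the CD28 relative that competes for the CD80 and CD86 ligands, stood at 0.26, 0.50 and 0.39 log2 on 1419334_at in stimulated N-ras KO arrays, against -0.35, 0.00 and 0.00 log2 in unstimulated ones. In WT it stood at 0.27, -0.04 and 0.75 log2 with stimulation and at -0.17, 0.00 and 0.52 log2 without it. The groups did not overlap in N-ras KO and did in WT, but the responses of 0.50 and 0.21 log2 (standard error 0.26 each) were both under 1.5-fold. Pdcd1 (1449835_at), the receptor PD-1 that dampens TCR signaling, was lower with stimulation in all 3 N-ras KO pairs, by -0.13, -0.17 and -2.44 log2. In WT its paired differences were -1.04, 0.52 and -0.68 log2. Its responses of -0.91 log2 in N-ras KO and -0.40 log2 in WT had a standard error of 1.20 each, and without N-ras KO 3 the N-ras KO value was -0.15 log2.

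The 4 Cd44 probe sets did not move together. On 1443265_at the stimulated N-ras KO arrays stood at 0.64, 2.62 and 0.21 log2 and the unstimulated ones at 0.00, 0.17 and 0.00 log2, whereas stimulated WT arrays stood at 0.03, 0.13 and -0.01 log2 and unstimulated ones at -0.17, 0.00 and 0.04 log2. N-ras KO 2 stood out, and without it the response in N-ras KO was 0.43 log2 instead of 1.10 log2. The call at the study's thresholds was lost when any 1 pair other than N-ras KO 3 was left out, and with the methods' t-test. The WT response was 0.09 log2 and the difference between genotypes 1.01 log2 (standard error 0.69, adjusted p = 1.0, limma), or 1.51 log2 without the pairs labelled N-ras KO 3 and WT 1. On 1452483_a_at all 6 pairs were higher with stimulation, by 0.37 to 1.47 log2 in N-ras KO and 0.20 to 0.28 log2 in WT, and the block brought the N-ras KO response of 0.79 log2 past the study's thresholds. The responses of 1423760_at and 1434376_at were between -0.05 and 0.27 log2 in both genotypes.

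Counted by pairs, 7 of 17 member probe sets were higher with stimulation in all 3 N-ras KO pairs and 2 were lower, against 13.8% higher and 12.9% lower of all probe sets. In WT 8 were higher in all 3 pairs and 1 was lower, against 14.5% and 13.5%. In all 6 pairs 4 were higher, those of Cd69, Tnfrsf4, Tnfrsf9 (1428034_a_at) and Cd44 (1452483_a_at), against 2.42% of all probe sets. Without the pairs labelled N-ras KO 3 and WT 1, 2 members were past the study's thresholds in N-ras KO (Cd69 and Cd44 1443265_at), 2 in WT (Cd69 and Tnfrsf9 1460469_at) and 0 for the difference. Of all 45101 probe sets, 740 were higher and 663 lower in N-ras KO, 332 and 414 in WT, and 588 and 450 for the difference. With the block in addition the member counts were 3, 5 and 2. Of all probe sets, 1347 were then higher and 1343 lower in N-ras KO, 813 and 963 in WT, and 1314 and 1231 for the difference.

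The spread between replicate pairs was set beside the size of the responses. The range over the 3 unstimulated arrays was larger than the size of the mean stimulation difference on 13 of 17 member probe sets in N-ras KO and on 14 of 17 in WT. In N-ras KO the pair numbered 3 was the lowest on 7 of 17 and the highest on 6, and in WT it was the lowest on 4 and the highest on 11. These counts were made for the members alone, and a range over single arrays can exceed a difference of means where nothing moved. They therefore do not say whether the receptors differ from other genes. On 6 of 17, against 13.4% of all probe sets, N-ras KO 3 was the lowest and WT 3 the highest in both states. On 1, that of Cd69, the order was the reverse, as on 23.4% of all probe sets. The 6 were those of Tnfrsf4, Tnfrsf18, Icos (1421930_at and 1436598_at), Cd44 (1452483_a_at) and Pdcd1, where N-ras KO 3 stood at -2.92 log2 stimulated and -0.49 log2 unstimulated and WT 3 at 2.04 and 2.72 log2.

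Foxp3, the defining transcription factor of regulatory T cells, had the order of those 6, as did 5 of the 11 regulatory T-cell markers in all and 6 of 8 general T-cell markers. Ikzf4 and Cd3e, 1 marker of each list, had the reverse. Foxp3 stood at -0.38, 0.36 and -1.23 log2 in stimulated N-ras KO arrays and at 0.00, 0.31 and -2.96 log2 in unstimulated ones, and at -0.38, 1.32 and 2.84 log2 in stimulated WT arrays and -1.78, 0.00 and 1.63 log2 in unstimulated ones. Its response was 0.47 log2 in N-ras KO and 1.31 log2 in WT (standard error 1.11 each). With the block the WT response was past the study's thresholds, as was that of the marker Gpr83 (1.15 log2). Over the 11 regulatory T-cell markers measured, the mean value was 0.02, 0.69 and 0.19 log2 in stimulated and -0.10, 0.42 and -0.42 log2 in unstimulated N-ras KO arrays, and -0.23, -0.03 and 0.97 log2 in stimulated and -0.43, -0.31 and 0.33 log2 in unstimulated WT arrays. The mean of the T-cell markers was -0.85 log2 stimulated and -0.67 log2 unstimulated in N-ras KO 3, and 0.46 and 0.59 log2 in WT 3. That mean had the order in both states, and the regulatory T-cell mean did not. The mean of 11 macrophage and dendritic cell markers had it too, at -0.35 and -0.09 log2 in N-ras KO 3 and 0.85 and 0.43 log2 in WT 3. So did the mean of 19 other costimulatory receptors, and no other list mean did. The part of regulatory T cells, of T cells as a whole, or of macrophages and dendritic cells in the receptor values was not tested. In sorted cells measured in bulk, fewer cells of a type and less RNA per cell cannot be told apart.

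**Figure D3:**
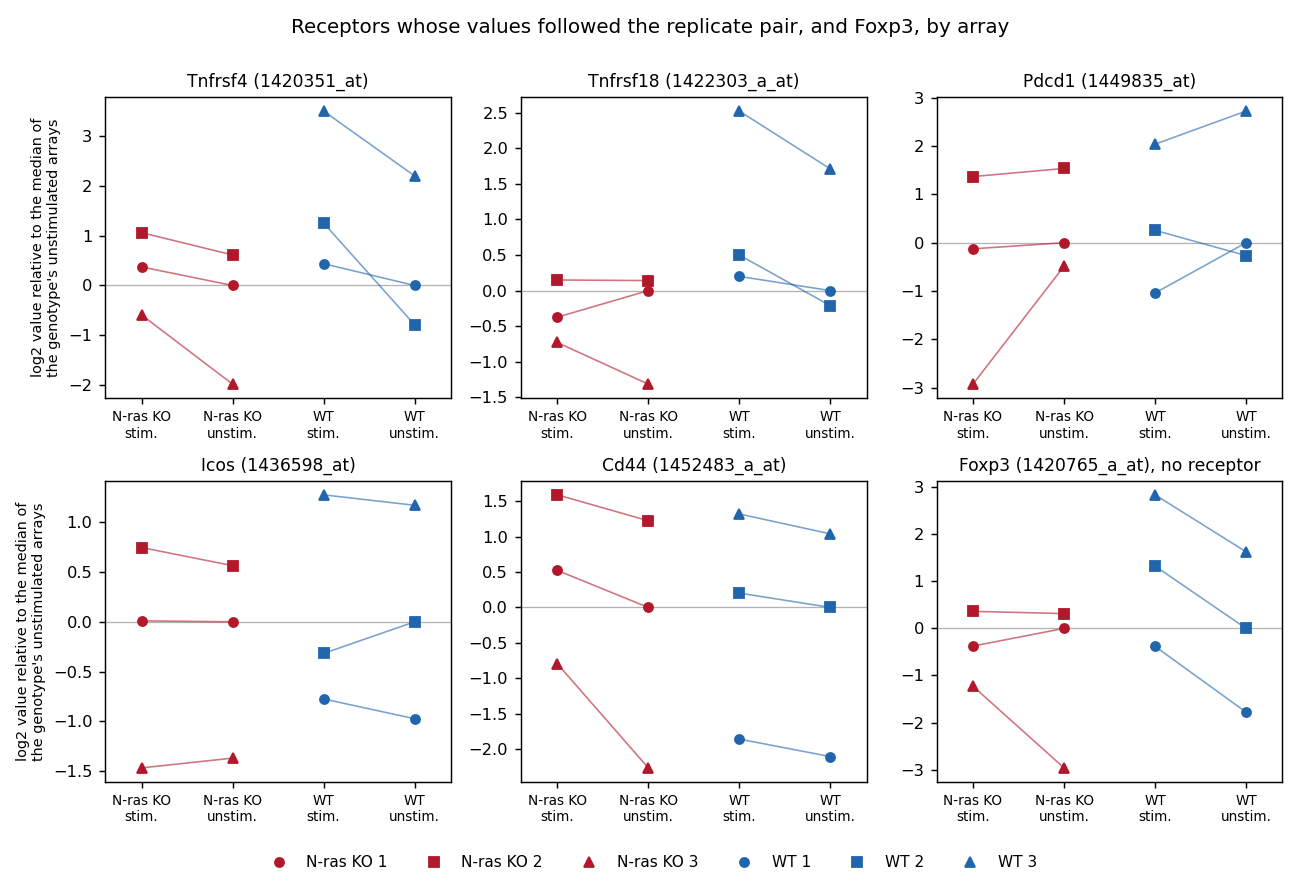
Log2 value of each CD4+ T-cell array (y axis) relative to the median of the unstimulated arrays of its genotype, for Tnfrsf4, Tnfrsf18, Pdcd1, 1 Icos and 1 Cd44 probe set and, for comparison, Foxp3, by group (x axis). Lines join arrays of the same number, and each genotype has its own zero. Triangles mark the pairs numbered 3, which lie lowest in N-ras KO and highest in WT in all 6 panels.

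Markers of other cells also differed between arrays. The mean of 10 neutrophil markers was 1.71, 0.97 and -0.21 log2 in stimulated and -0.06 to 0.04 log2 in unstimulated N-ras KO arrays, and 0.30, -1.75 and -0.36 log2 in stimulated and 0.35, -1.72 and 0.29 log2 in unstimulated WT arrays. None of these 10 genes passed the study's thresholds in either genotype, and with the block Mmp8 did in N-ras KO. The mean of 11 B-cell markers was highest in N-ras KO 3, at 1.09 log2 stimulated and 0.64 log2 unstimulated, and 1 of the 11, the adaptor gene Blnk, was past the thresholds in N-ras KO (2.33 log2, standard error 0.59). Among the regulatory T-cell markers the cytokine gene Il10 was past them in N-ras KO (2.45 log2, standard error 0.88), and among 10 NK and cytotoxic markers the transcription factor gene Eomes (2.07 log2, standard error 0.82). With the block, the difference of the responses was past the thresholds for Il10 (2.09 log2), Blnk (1.57 log2) and the neutrophil marker Ltf (1.89 log2). The N-ras KO response was the higher in each. Also with the block, the B-cell marker Ms4a1 was past them in WT (0.64 log2). The cytotoxic marker Cd8b1 was lower in N-ras KO (-0.77 log2) and Klrd1 lower in WT (-1.43 log2) there. No marker passed after adjustment. The part of these cells in the receptor values was not tested.

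The wider pathway was followed on lists of related genes. Of 19 other costimulatory receptors measured, 1 passed the study's thresholds, Il2ra, the alpha chain of the interleukin-2 receptor that activated T cells display. Its response was 0.75 log2 in N-ras KO and 1.66 log2 in WT (standard error 0.44 each), past the thresholds in WT. Of 11 other coinhibitory receptors, 17 ligands of these receptors and 17 signaling adaptors, 0 passed in either genotype, in the fit without the block, and the medians of the 4 lists lay between -0.08 and 0.28 log2. With the block, 2 other costimulatory receptors passed in N-ras KO (Slamf1 higher and Tnfrsf14 lower) and 2 in WT (Slamf1 and Il2ra), 1 coinhibitory receptor passed in WT (Btla), 1 ligand in N-ras KO and 3 in WT, and 1 adaptor in N-ras KO (Malt1).

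A list of genes known to respond to TCR signaling was used to gauge the stimulus. Of 17 measured, 4 were past the study's thresholds in N-ras KO and 6 in WT, all higher with stimulation, and their median response was 0.58 log2 in N-ras KO and 1.04 log2 in WT. Egr2, an early TCR-induced transcription factor, stood 5.40 log2 higher with stimulation in N-ras KO and 2.55 log2 in WT (standard error 0.69 each), and the difference of its responses, 2.85 log2, was the 1 in this list past the study's thresholds without the block. The nuclear receptor gene Nr4a1 stood 3.62 log2 higher in N-ras KO and 2.22 log2 in WT, and Irf4 2.39 and 1.59 log2 higher. The NF-kappaB gene Rel was past the thresholds in N-ras KO at 2.48 log2 and not in WT at 0.61 log2, while the difference between these responses was past them only with the block. Il2, Myc and Bcl2l1 were past the thresholds in WT only, at 2.17, 1.34 and 1.11 log2. In N-ras KO they stood 0.54, 0.41 and 0.41 log2 higher with stimulation. With the block, 6 of the 17 were past the thresholds in N-ras KO and 10 in WT, and the difference for Egr2, Rel and Irf4 (higher in N-ras KO) and for Irf8 (lower). None passed after adjustment, the lowest adjusted p being 0.36 for Egr2 in N-ras KO (limma).

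In thymocytes the question was which receptors differed in the absence of N-ras or of H-ras, with 1 array per genotype and therefore no replicate check and no p. On every probe set the median of the 3 arrays was 0, and the signs are KO minus WT, the reverse of the direction that the study used. Ctla4 was at 0.00 log2 in N-ras KO, at -0.13 log2 in H-ras KO and at 1.16 log2 in WT, so that N-ras KO was 2.23-fold and H-ras KO 2.45-fold under WT. Both comparisons use the same WT array. Ctla4 was the only member at least 1.5-fold lower in N-ras KO, 1 of 13 probe sets against 1.09% of all, and 0 were higher against 1.55% of all.

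In H-ras KO thymocytes 3 of 13 member probe sets were at least 1.5-fold lower than in WT, against 1.51% of all probe sets, and 0 were higher, against 1.47%. Besides Ctla4 these were both Icos probe sets measured there, 1421931_at at -0.85 log2 in H-ras KO and 0.04 log2 in WT (1.85-fold lower) and 1421930_at at -0.65 and 0.08 log2 (1.66-fold lower). In N-ras KO both Icos probe sets were at 0.00 log2. Ctla4 and Icos are adjacent protein-coding genes on chromosome 1, and Cd28, their relative, lies next to Ctla4. Cd28 differed from WT by 0.27 log2 in N-ras KO and by -0.02 log2 in H-ras KO.

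Just under the fold minimum were TNF receptor genes. Tnfrsf9 (1428034_a_at) was at -0.58 log2 in H-ras KO and 0.00 log2 in WT, and Tnfrsf4 at -0.55 log2 in H-ras KO and 0.00 log2 in WT. In N-ras KO these stood at 0.08 and 0.09 log2. Cd44 (1423760_at) was on the other side, at 0.36 log2 in H-ras KO and -0.10 log2 in WT. Pdcd1, Tnfrsf18 and Cd40lg differed by at most 0.17 log2 in size from WT in either KO. Lag3 and 1 Tnfrsf9 probe set (1421481_at) were at 0 on all 3 arrays, as were 23.7% of all probe sets. Since such values did not vary between arrays at all, they were not read as a lack of change between genotypes. The median difference of the 13 member probe sets was 0.00 log2 in N-ras KO and -0.13 log2 in H-ras KO, against 0.00 log2 over all probe sets in both.

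**Figure D4:**
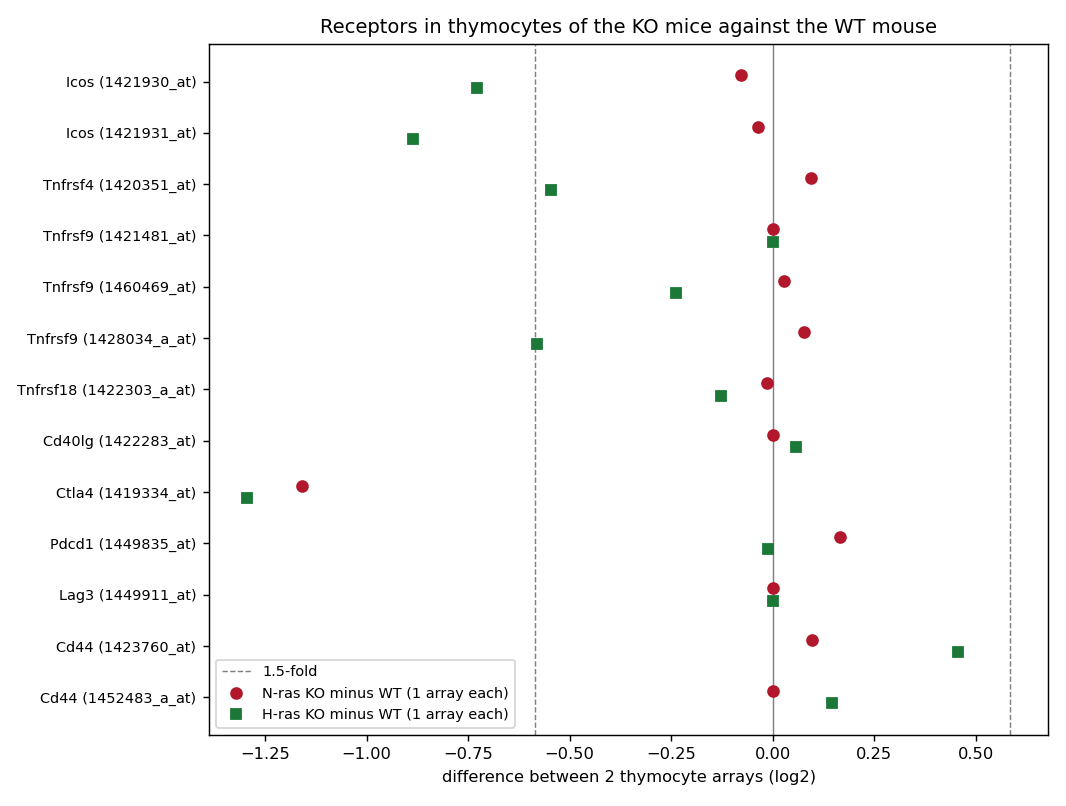
Difference between 2 thymocyte arrays in log2 (x axis) for the 13 member probe sets measured there (y axis), N-ras KO minus WT as red circles and H-ras KO minus WT as green squares, 1 array each, with no error. Dashed lines mark 1.5-fold. Ctla4 lies beyond the line in both comparisons, which share the WT array, and both Icos probe sets do in H-ras KO.

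Markers of other cells differed on the same arrays. Of 10 neutrophil markers 8 were at least 1.5-fold lower than in WT in N-ras KO and 8 in H-ras KO, with median differences of -1.43 and -1.81 log2. Of the 11 regulatory T-cell markers 0 were at least 1.5-fold higher or lower in either KO, and their medians were 0.01 log2 in N-ras KO and -0.10 log2 in H-ras KO. Of 17 TCR response genes 2 were lower in N-ras KO and 3 in H-ras KO by that measure. The part of these differences in the receptor values was not tested, and with 1 mouse per genotype the difference between mice and that between genotypes cannot be told apart.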

How the data were processed

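Splenic CD4+ T cells (12 arrays) and thymocytes (3 arrays) were hybridized to Affymetrix arrays. The authors deposited log2 values, which they had quantile-normalized, summarized by RMA and set to a baseline, the median of the control samples (per the methods; the labels name RMA), and no genome build or scan batch is given in the sources used here. The methods state both that sorted cells were divided and that a different mouse was used per condition. They name 1 array type, while the files hold 45101 and 22690 probe sets. GEO's annotation of the platforms gave the gene names and pairs 34958 of 45101 and 20393 of 22690 with 1 gene. Brightness was not kept, so that no dim probe set was removed, and precision is set by how many arrays there are.

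Responses (stimulated minus unstimulated) and their difference (N-ras KO minus WT) were fitted with limma 3.58.1 in R 4.3.3 (lmFit, eBayes, two-sided) on all 12 arrays, with p-values adjusted over the 45101 probe sets by Benjamini-Hochberg at 0.05. The study's thresholds were an unadjusted p of 0.05 and 1.5-fold, and they were applied to limma's p unless the methods' t-test is named. The fit was tested on simulated data. Where samples are not separate mice, p-values measure only the spread between arrays. Pairing was checked before calls were compared: deviations from group means correlated at 0.361, 0.394 and 0.626 within N-ras KO pairs and 0.458, 0.447 and 0.738 within WT pairs, and at -0.117 to -0.621 between genotypes, so that results of the fit with the block within genotype are given where it changes a call named in the text. Thymocytes were compared by fold alone.

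The receptors, 5 pathway lists and 8 cell type lists were chosen with earlier results of these data known. Named genes were all 10 receptors, up to 4 genes per pathway list and up to 2 per cell type list with the largest response past the study's thresholds, and Nras. Foxp3, Ikzf4, Cd4, Cd3e, Cd28, Il2, Myc, Bcl2l1 and list genes past the thresholds only with the block were named after their values were seen. List genes used 1 probe set each, by type and ID.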

Additional observations from a re-analysis of the deposited data

How the results depend on the processing

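No call of a member changed direction under any alternative. After adjustment, 0 members passed in each fit, for either response and for the difference. At the study's thresholds the counts of members in N-ras KO, WT and the difference were 3, 2 and 0. With a replicate block within genotype, by which arrays were paired, they were 6, 4 and 0, and with a block by number across genotypes 4, 2 and 0. The methods' t-test gave 2 in each genotype and 0 after Benjamini-Hochberg. In N-ras KO the 2 were Cd69 and Tnfrsf9 (1428034_a_at), so that Lag3 and Cd44 (1443265_at) lost their calls. An eBayes trend gave 1 in N-ras KO (Cd44 1443265_at) and 1 in WT (Tnfrsf9 1460469_at), so that Cd69 lost its call in both, quantile normalization run again gave 1 in N-ras KO, and 1 probe set per gene gave 1 in WT. Of all probe sets the trend put 468 higher and 479 lower in N-ras KO, and 201 and 189 in WT. Quantile normalization run again put 282 higher and 262 lower in N-ras KO. Leaving out each replicate in turn gave 1 to 2 members in N-ras KO, 0 to 2 in WT and 0 to 1 for the difference. Of all probe sets, 392 to 783 were then higher and 451 to 699 lower in N-ras KO. In WT these were 212 to 342 and 179 to 308, and for the difference 189 to 584 and 225 to 538. The member count of WT fell to 0 without WT 1 or WT 3, and that of N-ras KO to 1 without WT 1. That of the difference reached 1 without N-ras KO 3 or WT 3. Leaving out WT 1 and N-ras KO 3 together with the block, chosen after seeing the data, gave 5 in WT and 2 for the difference. In thymocytes a fold minimum of 2 left 1 member in H-ras KO, against 3. Of single probe sets under the alternatives, 802 kept their sign and their side of the thresholds (their size could move), 25 lost and 18 gained a call, and 40 uncalled values changed sign. The causes were not tested. A filter on dim probe sets could not be run, since the values hold no brightness.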
